A study of Mus musculus with 4 samples.

Results

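The genes described here are 48 genes of the cell cycle, 20 that copy DNA or prepare for it and 28 that act from the G2 phase through mitosis, out of 18194 genes with a probe set of their own on the Affymetrix mouse array. The members were given by name, and 47 of the 48 were measured, since Ccnb1 (cyclin B1) had no probe set in the annotation used and is not analysed here. Each gene was read from its brightest probe set (by mean log2 value) among those annotated to that gene alone. Gene expression was measured in bone marrow cells of C57BL/6 mice that were infected with lentivirus and then grown for 4 days with GM-CSF and IL-6, under which marrow cells become myeloid-derived suppressor cells (MDSCs), immature myeloid cells that restrain T cells. There was 1 array per group. In the knockdown pair, kdLNC received an shRNA against lncMDSC, the long noncoding RNA that the study calls lnc-C/EBPβ, and kdNC received a control shRNA. In the overexpression pair, oeLNC received a lentivirus carrying lncMDSC, and oeNC received the control lentivirus for overexpression. All 4 groups therefore carry a lentivirus and both cytokines. The labels name no sorting of the cultures, and in such bulk RNA fewer cells of a type and less RNA per cell cannot be told apart. The level of lncMDSC itself was not analysed here, because no probe set was found under its name, so the labels were not checked against it.

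Replication and mitosis use separate sets of genes that are switched on in turn. In late G1 the E2F transcription factors switch on the genes that load the MCM helicase onto replication origins and supply nucleotides. In G2 the genes of chromosome segregation follow, through the DREAM and MuvB complexes with B-Myb and FoxM1, which act at a promoter element called the cell cycle genes homology region (CHR), often with CCAAT boxes nearby that bind NF-Y. In marrow these genes are used by dividing progenitors of every lineage, and most are turned down as neutrophils and monocytes mature.

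RefSeq promoter sequence (GRCm38.p6, 250 bases before to 50 bases after the start of the gene) was at hand for 38 of the 48 genes, 16 for replication and 22 for mitosis. It was searched on both strands for an E2F motif (TTTCCCGC, TTTGGCGC, TTTCGCGC or TTTGCCGC), a CHR (TTTGAA or TTCGAA) and a CCAAT box (CCAAT). The sequences below show the motif that the classes do not share, and belong to 3 replication genes with an E2F match and 2 mitosis genes with a CHR match, taken from those with the highest mean level. Capitals mark every match to the 3 motifs, the reverse complement included, and each sequence runs 5′ to 3′ on the strand of its gene. The replication genes are Cdt1 at chr8:122568035-122568064 (plus strand), Mcm7 at chr5:138171884-138172133 (minus strand) and Mcm5 at chr8:75109259-75109508 (plus strand). The mitosis genes are Top2a at chr11:99024190-99024439 and Mki67 at chr7:135716380-135716629, both on the minus strand. For Cdt1, whose match lies after the start, 30 bases around it are shown, and for the other 4 genes the 250 bases before the start.
Cdt1: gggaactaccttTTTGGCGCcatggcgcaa
Mcm7: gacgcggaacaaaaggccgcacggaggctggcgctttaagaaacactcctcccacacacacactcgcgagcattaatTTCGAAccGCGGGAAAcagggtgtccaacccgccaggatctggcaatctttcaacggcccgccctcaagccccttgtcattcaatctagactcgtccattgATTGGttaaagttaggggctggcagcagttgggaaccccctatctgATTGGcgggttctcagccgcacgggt
Mcm5: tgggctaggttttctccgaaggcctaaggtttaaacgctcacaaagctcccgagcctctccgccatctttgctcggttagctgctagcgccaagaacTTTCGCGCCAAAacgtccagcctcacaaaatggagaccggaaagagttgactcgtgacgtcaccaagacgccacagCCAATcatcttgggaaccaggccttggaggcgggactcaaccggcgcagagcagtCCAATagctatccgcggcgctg
Top2a: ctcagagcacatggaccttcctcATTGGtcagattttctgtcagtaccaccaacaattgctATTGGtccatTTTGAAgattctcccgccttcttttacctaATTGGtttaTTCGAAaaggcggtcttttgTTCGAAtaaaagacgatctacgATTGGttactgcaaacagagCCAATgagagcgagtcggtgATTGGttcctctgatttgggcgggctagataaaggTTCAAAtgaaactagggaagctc
Mki67: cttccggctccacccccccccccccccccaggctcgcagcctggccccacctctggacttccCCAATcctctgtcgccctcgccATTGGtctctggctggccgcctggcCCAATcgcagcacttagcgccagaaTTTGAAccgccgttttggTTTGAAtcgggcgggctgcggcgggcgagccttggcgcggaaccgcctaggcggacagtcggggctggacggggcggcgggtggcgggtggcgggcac
In Mcm5 a pair of E2F matches on opposite strands overlapped, starting 153 and 149 bases before the start. In Mcm7 the E2F match began 165 bases before the start, next to a CHR. Top2a had 4 CHR and 6 CCAAT matches and no E2F match, and Mki67 had 2 CHR matches, 116 and 98 bases before the start, with 3 CCAAT boxes farther out.

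A gene was counted when any of its listed starts had a match. For Mcm7 and Uhrf1 only 1 of the listed starts had an E2F match, and the Mcm7 sequence above belongs to the matching start. Over the whole window, an E2F match was found in 8 of 16 replication genes (50%) and in 1 of 22 mitosis genes (4.55%), which was Cdk1. Its share was 2.6% among the 27025 genes in the promoter table and 4.58% among the 9780 of them above the expression filter, that is, above the median of all probe sets on at least 1 of the 4 arrays. A CHR match was found in 2 of 16 replication genes (12.5%) and in 18 of 22 mitosis genes (81.8%), beside 21.7% of all genes and 16.3% of those above the filter. A CCAAT box was found in 10 of 16 (62.5%) and 20 of 22 (90.9%), beside 41.1% and 42.3%. The classes were thus set apart by the E2F and CHR matches, as the shares by motif show. Of the 18 mitosis genes with a CHR, 9 had it in the 250 bases before the start, where its share was 40.9% beside 19.6% of all genes, and the others only in the 50 bases after it. A match is a stretch of letters and not a shown binding site.

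**Figure D1:**
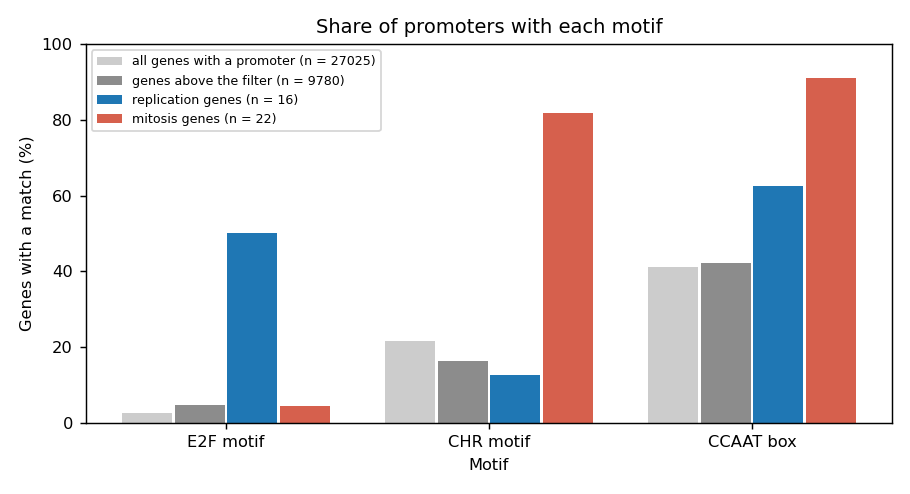
Share of genes (%) with at least 1 match to each motif in the window from 250 bases before to 50 bases after the gene start, for all genes, genes above the expression filter, replication genes and mitosis genes. E2F matches were found in 50% of the replication genes and 4.55% of the mitosis genes, and CHR matches in 12.5% and 81.8%.

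The genes of both classes were lowest in oeLNC. Levels are given as log2 of the deposited intensity in the order kdNC, kdLNC, oeNC and oeLNC, and a difference of 1 is a 2-fold difference. Of the 47 measured genes, 45 had their lowest level in oeLNC, against 25.6% of the 12092 genes above the filter, the exceptions being Pcna (lowest in oeNC) and Foxm1 (lowest in kdLNC). The highest level was in kdNC for 31 genes, in kdLNC for 9, in oeNC for 6 and in oeLNC for 1. For 26 genes (8 for replication and 18 for mitosis) the levels ran from kdNC through kdLNC and oeNC down to oeLNC, an order found for 6.56% of the genes above the filter. As a mean over the 47 genes, the level lay 0.32 above each gene's own mean in kdNC and 0.20 above it in kdLNC, and 0.05 below it in oeNC and 0.47 below it in oeLNC. Of the 47 genes, 46 lay above the median of all probe sets on every array, some of them only just. In oeLNC, their lowest array, Kif20a, Ttk, Cdc6 and Ccne2 were at percentiles 51, 54, 55 and 58 of the array, so these low values are those of dim probe sets. Tyms, thymidylate synthase, lay below the median on all 4, with levels of 2.61, 2.39, 2.69 and 2.20, and its differences are those of a dim probe set.

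**Figure D2:**
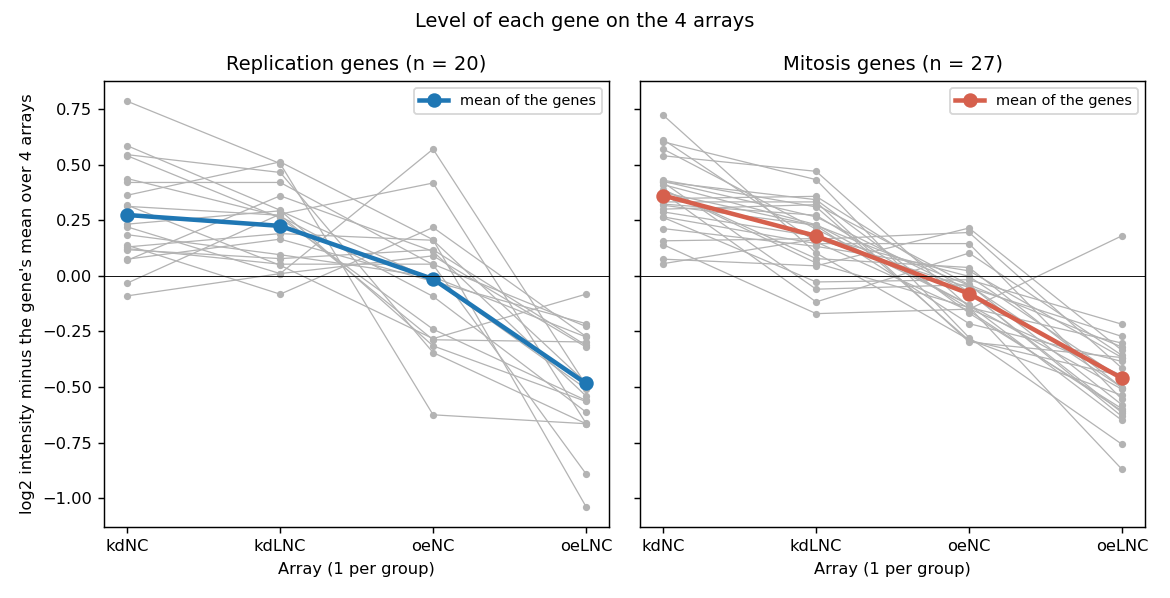
Level of each gene on the 4 arrays (1 per group), as log2 intensity minus the gene's mean over the arrays, for replication genes (left) and mitosis genes (right). Grey lines are genes and the coloured line is their mean, which ran from 0.27 in kdNC to -0.49 in oeLNC for replication and from 0.36 to -0.46 for mitosis.

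No test was possible, because limma, the tool of the study's methods, needs more than 1 array in a group, so differences are given as values without a p or an error between replicates. Beside a difference stands the SD of the difference between the control arrays (oeNC minus kdNC) over the 500 genes nearest in level, called the control SD. It ranged from 0.28 (Tyms) to 0.63 over the measured members and holds vector, culture and array together.

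The overexpression pair asks what lncMDSC added to the cells. In oeLNC, 45 of the 47 genes were below oeNC (19 of 20 for replication and 26 of 27 for mitosis), where 51.9% of the 11869 genes above the filter were below it. The median difference was -0.43 over the members, -0.42 for replication and -0.45 for mitosis, and -0.014 over all genes above the filter. At least 1.5-fold lower were 9 members (6 for replication and 3 for mitosis), against 5.38% of all genes, and none was 1.5-fold higher, against 3.93%. At least 2-fold lower were 3, Cdc6, Ccne2 and Hells, against 0.809%. The difference of 12 genes exceeded the control SD in size, against 14.5% of all genes above the filter.

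By the brightest probe sets, the largest differences were among genes of S-phase entry and of chromatin in S phase. Other probe sets of Aurkb (-1.55), Mcm6 (-1.38), Mcm4 (-1.22), Cenpe (-1.10) and Stmn1 (-1.09) gave differences of like size or larger. Cdc6, which loads the MCM helicase onto origins, was at 5.94, 6.09, 5.74 and 4.54. It was thus 2.31-fold lower in oeLNC than in oeNC (log2 difference -1.21, control SD 0.47), and the other 3 arrays lay close together. Ccne2, cyclin E2, the partner of Cdk2 at the entry into S phase, was at 5.14, 5.24, 5.80 and 4.74, which is 2.09-fold lower in oeLNC. Ccne1, cyclin E1, which has the same partner, was at 7.34, 7.30, 6.74 and 6.73, lower on the oe arrays than on the kd arrays and nearly the same within each pair. Hells, a chromatin remodeller of the SNF2 family that aids DNA methylation, was at 6.64, 6.95, 7.09 and 6.01 (2.11-fold lower in oeLNC). Uhrf1, which brings the maintenance methyltransferase to newly copied DNA, was at 7.74, 7.74, 7.37 and 6.43 (1.91-fold lower). Hells was highest in oeNC and Uhrf1 in the kd arrays, so that only the low value in oeLNC was common to them. The other probe set of Hells above the filter differed, with 5.49, 5.38, 4.62 and 4.98, and was higher in oeLNC than in oeNC by 0.35.

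The MCM genes encode the ring-shaped helicase that unwinds DNA, and all were lower in oeLNC than in oeNC. Mcm2 was at 8.37, 8.43, 8.40 and 7.76, and Mcm5 at 9.34, 9.63, 9.38 and 8.73. Their other 3 arrays lay close together, and oeLNC was 1.55-fold and 1.57-fold below oeNC (differences of -0.64 and -0.65, control SD 0.57 for each). Mcm3 (7.77, 7.83, 7.52 and 7.03) and Mcm10 (6.60, 6.39, 6.47 and 6.06), a factor that helps to activate the helicase, differed less, by -0.49 and -0.41. Mcm7, at 9.76, 9.69, 9.69 and 9.41, and Mcm4, at 7.85, 7.94, 7.75 and 7.56, differed by -0.28 and -0.19. Cdt1, the loading partner of Cdc6, was at 9.91, 9.87, 9.91 and 9.48, again with only oeLNC apart. Mcm6 was at 8.20, 8.12, 7.31 and 6.99, and here both oe arrays were below both kd arrays. The brightest probe sets of Mcm2, Mcm3, Mcm5, Mcm7, Mcm10 and Cdt1 have IDs ending in _s_at, _x_at or _a_at. Such IDs belong to probe sets that can match more than 1 transcript, of the same gene or of others. They also belong to the second probe sets of Mcm4 and Mcm6, which behaved otherwise. That of Mcm4 was at 6.50, 7.38, 7.38 and 6.16, and that of Mcm6 at 6.86, 7.88, 7.24 and 5.87, so that both were higher in kdLNC than in kdNC (by 0.87 and 1.02) and lower in oeLNC than in oeNC (differences of -1.22 and -1.38).

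Gins1, Rrm1, Rrm2 and Tk1 were lower on both oe arrays than on both kd arrays. Gins1, a subunit of the GINS complex of the moving helicase, was at 6.66, 6.38, 5.25 and 5.21, 2.66-fold lower in oeNC than in kdNC and level within the overexpression pair. Gins2, another subunit of it, was at 6.67, 6.58, 6.48 and 6.21. Rrm1 and Rrm2 encode the ribonucleotide reductase that makes deoxynucleotides. Rrm1 was at 8.33, 8.16, 7.80 and 7.28, and Rrm2 at 9.77, 9.48, 8.87 and 8.62. Tk1, the thymidine kinase of S phase, was at 5.92, 5.64, 5.14 and 4.82. By these probe sets all 3 stepped down over the arrays in the same order. A second probe set of Rrm2, at 7.55, 7.58, 6.98 and 6.14, had its larger step from oeNC to oeLNC, unlike the brightest. Pcna, the sliding clamp of the DNA polymerases, was at 11.40, 11.13, 10.80 and 11.00, and was the only replication gene higher in oeLNC than in oeNC (by 0.19, control SD 0.51).

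Among the mitosis genes the differences in the overexpression pair ran from -0.73 to 0.33. By the brightest probe sets, 3 mitosis genes were at least 1.5-fold lower, Aurkb, Birc5 and Cdca8. They encode Aurora kinase B and partners in the chromosomal passenger complex, which corrects the attachment of chromosomes to the spindle. Cenpf (-0.57), Cenpa (-0.55), Kif20a (-0.54) and Cdc20 (-0.54) lay close to that threshold. Other probe sets of Kif11 (-0.71 and -0.59), Cenpe (-1.10) and Stmn1 (-1.09) passed it. The brightest probe sets of Aurkb and Cdca8 have IDs ending in _x_at and _s_at. Birc5 (survivin) was at 7.53, 7.46, 6.85 and 6.12 (difference -0.73, control SD 0.54). Aurkb was at 5.73, 5.61, 5.61 and 4.91 (difference -0.70, control SD 0.46), and Cdca8 (borealin) at 8.38, 8.49, 8.52 and 7.91 (difference -0.61, control SD 0.58). Aurkb and Cdca8 were level over 3 arrays, while Birc5 was also lower in oeNC than in kdNC. A second probe set of Aurkb gave a difference of -1.55.

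The 6 members around the anaphase-promoting complex and the centromere were below oeNC by less than 1.5-fold by their brightest probe sets. Cdc20, the activator of that complex, was at 8.20, 8.22, 7.86 and 7.32, and Ube2c, its ubiquitin-conjugating enzyme, at 8.31, 8.23, 7.72 and 7.29. Cdca3, which helps to degrade the mitosis inhibitor Wee1, was at 7.27, 7.11, 6.77 and 6.23. Both oe arrays were below both kd arrays for all 3 of these genes. Cenpa, the histone H3 variant of the centromere, was at 7.89, 7.86, 8.03 and 7.48, and only oeLNC was low. The kinetochore genes Cenpf (6.16, 6.17, 5.74 and 5.18) and Cenpe (6.07, 5.95, 5.35 and 5.19) were lower on both oe arrays. Foxm1, the transcription factor of the mitotic genes, was at 6.03, 5.72, 5.74 and 6.07, and was the only mitosis gene higher in oeLNC than in oeNC (by 0.33, control SD 0.59). Its other 2 probe sets above the filter were also higher in oeLNC, by 0.24 and 0.018. The remaining mitosis genes not described elsewhere, the checkpoint and mitotic kinase genes Plk1, Bub1 and Bub1b, the spindle motor genes Kif11 and Kif20a, and Ccna2 (cyclin A2, which acts in S phase as well), differed by -0.54 (Kif20a) to -0.18 (Bub1b). All of these were highest in kdNC and lowest in oeLNC.

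**Figure D3:**
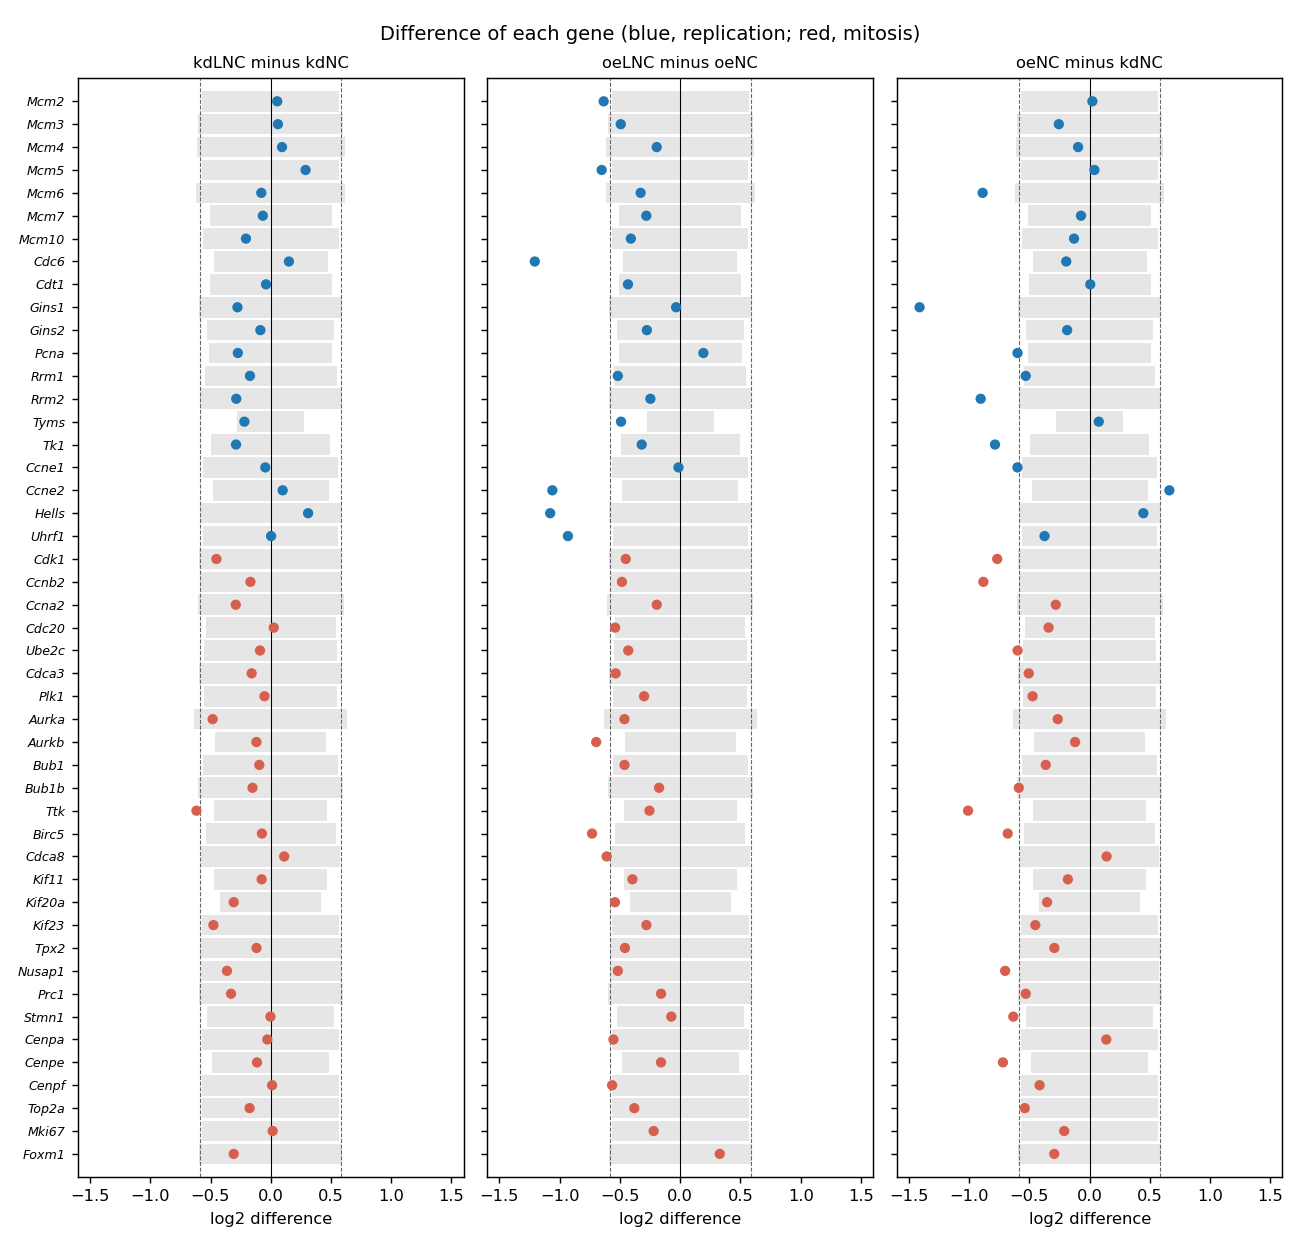
Log2 difference of each of the 47 genes in 3 comparisons (blue, replication; red, mitosis), with grey bars for the control SD of genes of like level on either side of 0 and dashed lines at 1.5-fold. In the overexpression pair 45 points lie below 0 and 12 lie outside the grey bars (14.5% of all genes did), and in the knockdown pair 1 does (6.67% of all genes did).

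The knockdown pair asks what loss of lncMDSC did, and there the genes were close to level. In kdLNC, 35 of 47 genes were below kdNC (12 for replication and 23 for mitosis), where 58.7% of the 11505 genes above the filter were below it. The median difference was -0.095 over the members, -0.055 for replication and -0.12 for mitosis, beside -0.048 over all genes. Only Ttk was at least 1.5-fold lower, against 1.96% of all genes, and none was 1.5-fold higher, against 2.36%. Ttk, the spindle checkpoint kinase also called Mps1, was at 5.72, 5.10, 4.71 and 4.46 (difference -0.62 in the knockdown pair, control SD 0.47). With kdLNC set against the average of kdNC and oeNC, the members' median turned to 0.087. That average takes in the difference between the control arrays, so the value is not a separate measurement of kdLNC.

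Within this narrow range, the mitosis genes with the lowest differences were kinase and spindle genes. All 6 genes of the Aurora, Polo, Bub and Ttk kinases were below kdNC, among them Aurka, which builds the spindle poles, at 6.67, 6.18, 6.40 and 5.94. Cdk1, the kinase that drives entry into mitosis, was at 7.44, 6.98, 6.67 and 6.22, with -0.45 in each pair against a control SD of 0.59. The spindle genes Kif23, a motor of the midzone, at 7.48, 7.0, 7.02 and 6.74, and Nusap1, which binds microtubules, at 7.44, 7.08, 6.74 and 6.22, differed by -0.48 and -0.36. Prc1, which bundles midzone microtubules, was at 8.15, 7.82, 7.62 and 7.46. Apart from Ttk, none of these kinase genes and none of the 7 spindle genes was past its control SD in kdLNC. In the other direction, Hells and Mcm5 were above kdNC by 0.31 and 0.29, but the other probe set of each above the filter was not (differences of -0.10 and -0.057).

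The control arrays differed from each other more than kdLNC differed from kdNC. In oeNC, 39 of 47 genes were below kdNC (14 for replication and 25 for mitosis), where 53.3% of the 11723 genes above the filter were below it. The median difference was -0.36 over the members, -0.19 for replication and -0.45 for mitosis, beside -0.036 over all genes. At least 1.5-fold lower were 15 members (6 for replication and 9 for mitosis), against 12.2% of all genes, and 1, Ccne2, was 1.5-fold higher, against 9.22%. At least 2-fold lower were Gins1 and Ttk, against 4% of all genes. Ccnb2, cyclin B2, was at 6.47, 6.30, 5.59 and 5.11, which is 1.84-fold lower in oeNC than in kdNC. Stmn1, stathmin, which takes microtubules apart, was at 10.60, 10.60, 9.97 and 9.90, level within each pair and 1.55-fold lower in oeNC. With 1 array of each, the vector, the culture and the array cannot be told apart in this comparison. It shares kdNC with the knockdown pair and oeNC with the overexpression pair.

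**Figure D4:**
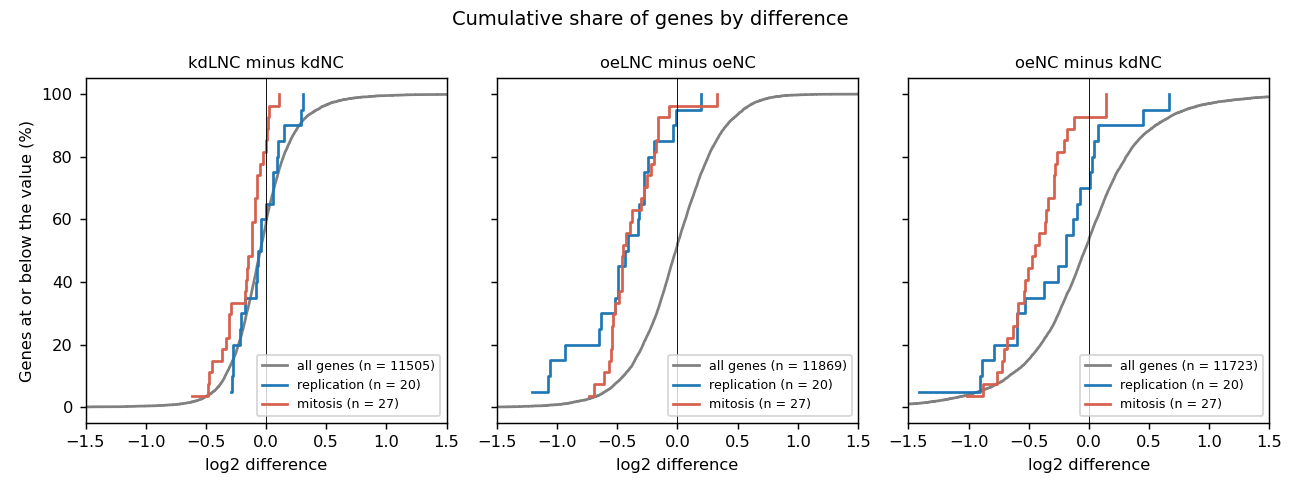
Cumulative share (%) of genes at or below each log2 difference, for replication genes, mitosis genes and all genes above the filter, in 3 comparisons. The member curves lie left of the curve of all genes in the overexpression pair (medians -0.42, -0.45 and -0.014) and near it in the knockdown pair (medians -0.055, -0.12 and -0.048).

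The oe arrays were below the kd arrays for most members. For 34 of the 47 genes (13 for replication and 21 for mitosis) both oe arrays were below both kd arrays, against 30.8% of the 12092 genes above the filter, and for none were both above. The mean of the oe arrays was below the mean of the kd arrays for 45 genes, all but Ccne2 and Foxm1, with a median difference of -0.53 beside 0.0046 over all genes. At least 1.5-fold lower by these means were 21 genes (7 for replication and 14 for mitosis), against 10.4% of all genes, and none was 1.5-fold higher, against 5.84%. Top2a, the topoisomerase that untangles chromosomes, was at 9.70, 9.52, 9.16 and 8.78. Mki67, which encodes the proliferation marker Ki-67, was at 9.01, 9.02, 8.80 and 8.58, a smaller step in the same direction. The arrays of a pair carry different treatments and are not replicates.

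Replication was then set against mitosis. The mitosis median minus the replication median was -0.031 in the overexpression pair, -0.064 in the knockdown pair, -0.26 between the control arrays and -0.20 between the pair means. The control difference changed with the probe sets and the genes used. After removal of probe sets with IDs ending in _s_at, _x_at or _a_at it was 0.066. With the second probe set of the genes that have one above the filter it was 0.042. The difference between the pair means became 0.14 and -0.0061 in the same way. These alternatives held fewer genes, 41 and 27. By the brightest probe sets of the same 41 genes, the values were -0.23 between the control arrays and -0.20 between the pair means. By those of the same 27 genes, they were -0.13 and -0.023. Lists of other genes of the same processes gave 0.0075 between the control arrays and 0.071 between the pair means. A lower level of mitosis than of replication genes in the oe arrays was therefore not seen with every probe set or list. Split by promoter instead, the 9 measured genes with an E2F match had a median of -0.49 in the overexpression pair and the 28 without -0.42, and between the control arrays the medians were -0.19 and -0.52. Split by the CHR, the 20 with a match had -0.44 in the overexpression pair and the 17 without -0.49, and between the control arrays -0.43 and -0.53.

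The other probe sets of the members were read as a second measurement on the same RNA. There were 40 above the filter, belonging to 27 genes, and 32 of them were below oeNC in oeLNC, with a median of -0.52. In kdLNC 26 of the 40 were below kdNC (median -0.068), and in oeNC 29 were below kdNC (median -0.20). Single genes were less steady, as 10 of the 40 differed from the gene's brightest probe set by more than 1.5-fold in the overexpression pair. Tpx2, which brings Aurora A to the spindle, was at 6.12, 6.01, 5.83 and 5.37 by its brightest probe set, but a dimmer one was at 4.37, 4.37, 4.46 and 5.28. Stmn1 and Cenpe, nearly level in the overexpression pair by their brightest probe sets, were lower in oeLNC by their second, with differences of -1.09 and -1.10.

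**Figure D5:**
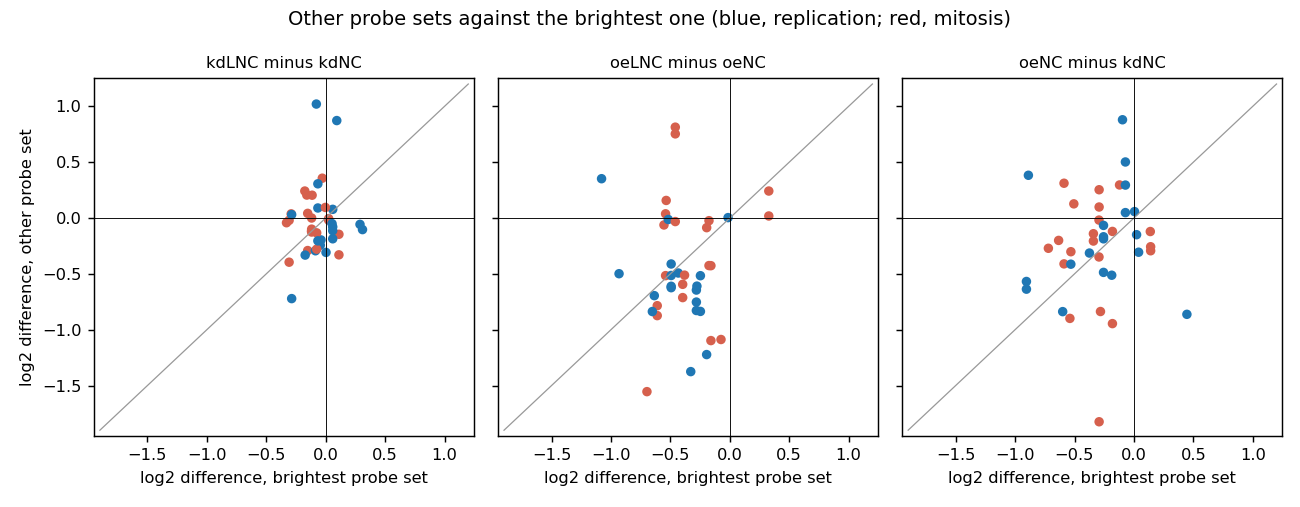
Log2 difference of each of the 40 other probe sets above the filter (vertical) against that of the brightest probe set of the same gene (horizontal) in 3 comparisons, with the grey line marking equal values (blue, replication; red, mitosis). In the overexpression pair 32 of the 40 lie below 0, and 10 differ from the brightest by more than 1.5-fold.

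Further genes of these processes, from lists that exclude the members, were lower in oeLNC as well. These lists were read on the same arrays and chosen with earlier results of these data known, so they are no separate test. Of 38 measured other replication genes, 36 were below oeNC and 11 were at least 1.5-fold lower (median -0.27), against 51.9% and 5.38% of all genes, and none was 1.5-fold higher. Dscc1, which helps to load the clamp, was at 4.22, 4.39, 4.41 and 3.19, and Dut, which keeps uracil out of DNA, was at 7.79, 7.71, 7.67 and 6.74. Of 54 other mitosis genes, 46 were below oeNC and 15 were at least 1.5-fold lower (median -0.39), and none was 1.5-fold higher. Kif2c, a motor that takes microtubules apart at the centromere, was at 6.41, 6.59, 6.68 and 5.58, and Ect2, which starts cytokinesis, at 6.28, 6.39, 6.33 and 5.29. As with Cdc6, Mcm2 and Aurkb, oeLNC alone stood apart in these 4 genes. In kdLNC, 0 of the 38 and 2 of the 54 were at least 1.5-fold lower, against 1.96% of all genes. In oeNC against kdNC, 7 of each list were, against 12.2%, so that the other mitosis genes were near that share.

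Among regulators that act upstream of these genes, 4 of 11 G1 genes and 2 of 19 brakes had their lowest level in oeLNC, against 25.6% of all genes. Of the 11 G1 cyclins, CDKs and their transcription factors, 6 were at least 1.5-fold lower in oeNC than in kdNC (median -0.62), against 12.2% of all genes. In oeLNC 5 of the 11 were below oeNC (median 0.12), against 51.9%. Ccnd2, cyclin D2, was at 10.13, 10.20, 8.79 and 9.47, and Myc at 6.54, 6.49, 5.47 and 5.98, so that both were lowest in oeNC. Mybl2, which encodes B-Myb, was at 4.80, 4.64, 4.82 and 3.71, with oeLNC alone apart. Of the 19 CDK inhibitors and other brakes on the cycle, 4 were at least 1.5-fold higher in oeNC than in kdNC, against 9.22% of all genes, and 1 was lower, against 12.2% (median 0.14). Cdkn1b, the CDK inhibitor p27, was at 8.46, 8.58, 9.65 and 9.04, and Ccng2, an unusual cyclin linked to arrest, at 9.24, 9.01, 10.49 and 10.23. Gadd45a, a stress-induced inhibitor of Cdk1, was at 8.85, 8.91, 9.94 and 9.28. Each of these 3 genes was highest in oeNC, not in oeLNC.

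Markers of other cells that divide in marrow moved with some of these values. All 11 measured B-lineage markers were lower in oeNC than in kdNC, against 53.3% of all genes, and 7 by at least 1.5-fold, against 12.2%. Their summed intensity was 9141 and 9150 in kdNC and kdLNC and 5717 and 6564 in oeNC and oeLNC. In the overexpression pair they were not lower together, with 5 of 11 below oeNC, against 51.9% of all genes, and a median of 0.15. Vpreb1, part of the surrogate light chain of dividing B-cell precursors, was at 8.99, 8.66, 7.19 and 6.57. The summed intensity of 14 myeloid progenitor and promyelocyte markers was 3052, 2822, 2570 and 2308, with medians of -0.23 in the knockdown pair, -0.17 in the overexpression pair and -0.062 between the control arrays. These markers did not move together. Between the pair means 8 of the 14 were higher on the oe arrays and 6 lower (median 0.074). Gfi1 was at 5.78, 5.55, 6.69 and 5.92, and Ctsg at 8.83, 8.76, 8.04 and 8.04. The other marker lists did not move as 1 block either. Of 10 mast cell and basophil markers, 5 were at least 1.5-fold lower in oeNC than in kdNC, against 12.2% of all genes. Of these, 4 were at least 2-fold lower, against 4%, and 1 marker was 1.5-fold higher, against 9.22% (median -0.34). Ms4a2 and Fcer1a, subunits of the IgE receptor, were at 7.67, 7.53, 5.36 and 5.98 and at 6.51, 6.0, 4.72 and 4.91. The list summed to 3122, 2587, 3152 and 2774, near level between the control arrays, and this sum holds Hdc, the enzyme that makes histamine, at 9.74, 9.43, 11.07 and 10.59. The 7 eosinophil markers summed to 3025, 1574, 1437 and 1358. At least 1.5-fold below kdNC were 6 in oeNC, against 12.2% of all genes, and 5 in kdLNC, against 1.96%. Of 11 erythroid markers 2, Tfrc and Car2, were at least 1.5-fold lower in oeNC, against 12.2% of all genes. The median of the 11 was 0.010, while their sum was 1096, 1112, 728 and 829.

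Of the mature myeloid markers, all 12 neutrophil markers lay above the median of all probe sets on every array. So did 10 of the 12 monocyte and macrophage markers. Of 12 neutrophil markers, 7 were below kdNC in kdLNC by 1.5-fold or more, against 1.96% of all genes. At least 2-fold lower were 5, against 41 of 11505 genes (median -0.88), where the members were close to level. Ltf, lactoferrin of the secondary granules, was at 9.69, 6.99, 10.44 and 9.91. In the overexpression pair 0 of the 12 were 1.5-fold apart (median -0.059), against 5.38% of all genes lower and 3.93% higher. The list summed to 47687, 40193, 51951 and 48684. The 12 monocyte and macrophage markers summed to 6744, 6585, 7394 and 7327. In oeLNC 3 were at least 1.5-fold below oeNC, against 5.38% of all genes, and 1 was higher, against 3.93% (median -0.28). The 12 stromal markers summed to 285, 257, 271 and 271. No marker was listed at 0, but no probe set was, as the lowest deposited intensity was 1.33 (in oeNC). A value above 0 therefore does not show that the cells of a marker were present. The part of these cells in the member values was not tested.

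The arrays were alike in their middle and less so in their spread. Their medians were 4.17 to 4.24, and the upper quartile was 6.15, 6.14, 6.08 and 5.98, lowest in oeLNC. After a further quantile normalization, which makes these quartiles equal, the members' median in the overexpression pair was -0.36. The 3′ minus 5′ difference of the Actb control probe sets, a measure of RNA integrity, was 1.61 in kdNC and 1.96 to 1.97 on the other arrays. That of Gapdh was 0.51, 0.69, 0.53 and 0.65, and was thus higher in kdLNC and oeLNC than in either control array. The part of RNA integrity in the member values was not tested. Where the median of each array was set equal, 16 instead of 9 members were at least 1.5-fold lower in oeLNC, and against the average of kdNC and oeNC 27 were. The count of 27 also takes in the difference between the control arrays. The median was 4.24 in oeLNC and 4.17 in oeNC, so setting them equal lowered the difference of every gene in this pair. The share over all genes is not given under either setting, so the counts of 16 and 27 cannot be weighed against it.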

How the data were processed

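RNA of 4 cultures was hybridised to Affymetrix mouse arrays, 1 per group, and the groups were taken from the labels. The authors deposited an intensity for each of 45101 probe sets on a linear scale. Their processing notes name RMA (background correction, quantile normalization and summary), without version or settings. The log2 of the deposited intensity was taken. Of the probe sets, 34958 have 1 gene symbol, 932 have several and 9211 have none, and only the first kind was used, which gave 18194 genes. The 47 measured members have 110 probe sets, and 36 members have several.

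Differences (kdLNC minus kdNC, oeNC minus kdNC, oeLNC minus oeNC, and mean of the oe arrays minus mean of the kd arrays) were computed with Python 3.11.15, numpy 2.4.6 and pandas 2.3.3, with statsmodels 0.14.6 for loess and matplotlib 3.10.9 for plots. A gene entered the all-gene counts when any array of the comparison had it above that array's 50th percentile, and members were counted whatever their level, with a fold threshold of 1.5. The members and the 14 further lists (235 of 266 genes matched) were chosen with earlier results of these data known. Every member could be named, and from each list at most 4 genes per comparison, those with the largest differences, and some that the rule allows are not reported here. Alternatives were median centring, quantile normalization, loess, other probe set rules, other filters, a threshold of 2 and the mean of both controls. Simulated data were used to test the calculation for oeLNC minus oeNC, with 200 changed genes among 11530, where 97.0% of rises, 94.0% of falls and 0.556% of unchanged genes passed 1.5-fold. The simulated noise had an SD of 0.15 per array, set by choice and not estimated from these arrays. These shares therefore check the calculation only and are not error rates of the real comparisons.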

Additional observations from a re-analysis of the deposited data

How the results depend on the processing

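No paired analysis was possible because there was only 1 array of each kind, which also leaves no replicate to omit. Values therefore have no replicate error, precision is limited by the number of arrays, and the signal over background was not estimated. A median counted as moved when it changed by over 0.1, a limit set by choice, and a count when it changed by over 1.5 times. The second brightest probe set was added as an alternative after seeing the data. The medians of all 47 members and of each class kept their direction in the overexpression pair, between the control arrays and between the pair means under the alternatives run.

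Against the average of kdNC and oeNC, the medians of kdLNC turned to 0.087 (all), 0.099 (replication) and 0.041 (mitosis), and those of oeLNC became -0.62, -0.63 and -0.61, with 0 genes at least 1.5-fold lower in kdLNC and 27 in oeLNC. The average takes in the difference between the control arrays. Median centring gave 16 genes at least 1.5-fold lower in oeLNC. No share over all genes is given for the counts under these alternatives. At a threshold of 2, 0 were lower in kdLNC, 3 in oeLNC, 2 in oeNC and 4 between the pair means, and 0 were higher in oeNC. Loess gave 0 lower in kdLNC. Quantile normalization gave a mitosis median of -0.49 between the pair means.

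With the mean of all probe sets, 0 genes were lower in kdLNC and 9 in oeNC, the mitosis median was -0.29 in oeLNC and -0.47 between the pair means, and mitosis minus replication was 0.13 and -0.028 there. Removal of probe sets with IDs ending in _s_at, _x_at or _a_at left 41 genes. The replication median was then -0.43 in oeNC and -0.68 between the pair means. Mitosis minus replication was 0.072 in oeLNC, 0.066 in oeNC and 0.14 between the pair means. Cdca3 was at 0.0071 between the pair means, but by a probe set below the median on every array (1.47, 1.47, 1.38 and 1.57).

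With the second probe set of 27 genes, 0 genes were lower in kdLNC, 5 in oeNC and 11 between the pair means, and 2 were higher in kdLNC and 1 in oeLNC. The mitosis median was -0.0026 in kdLNC, -0.26 in oeNC and -0.48 between the pair means, and the replication median was -0.62 in oeLNC and -0.31 in oeNC. Mitosis minus replication was 0.054 in kdLNC, 0.15 in oeLNC, 0.042 in oeNC and -0.0061 between the pair means. Cdca3 was at 0.10 between the pair means, Hells at 0.35 in oeLNC and Mcm6 at 0.38 in oeNC. By the brightest probe set of the same 27 genes, mitosis minus replication was -0.13 in oeNC, 0.045 in oeLNC and -0.023 between the pair means. The cause of these changes was not tested. Fewer genes entered the last 2 alternatives.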

Other observations

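Of 17 measured DNA damage and recombination genes, 14 were below oeNC in oeLNC and 3 were at least 1.5-fold lower (median -0.18), against 51.9% and 5.38% of all genes above the filter. Chek1, the checkpoint kinase of stalled replication, was at 5.44, 5.81, 5.61 and 4.96 in kdNC, kdLNC, oeNC and oeLNC, and was lowest in oeLNC. Fanca, of the Fanconi anaemia repair pathway, was at 6.95, 6.70, 5.90 and 6.26, lowest in oeNC. Brca1 was at 6.72, 6.18, 6.66 and 6.29, lower in kdLNC and in oeLNC than in their own controls.

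Of 7 measured histone, chromatin and tubulin genes linked to division, 6 were below kdNC in oeNC, against 53.3% of all genes above the filter. The gene of the histone variant H2AX was at 8.22, 8.49, 6.38 and 6.19, and thus differed between the control arrays by -1.83, more than any member did. Tubb4b, a beta tubulin, was at 8.90, 8.97, 7.91 and 8.04. Hmgb2, a chromatin protein of dividing cells, went the other way, at 9.40, 9.40, 10.36 and 9.86. None of the 7 was 1.5-fold apart within either pair.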
